A study of Mus musculus with 8 samples.

Results

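The genes described here make, take up, store and release cholesterol in mouse testis, and they were chosen by name as 30 protein-coding genes among the 19906 listed in the deposited table. Each of the 30 symbols matched a single row. RNA came from whole testes of 8 mice aged 2 months, with 1 library per mouse, of which 4 were Tmem232-/- (labelled KO) and 4 were Tmem232+/+ (labelled WT). The Tmem232-/- mice carried a CRISPR-Cas9 deletion of a fragment of Tmem232 that shifts its reading frame, made in fertilized oocytes of C57BL/6 mice, and the Tmem232+/+ mice were wild-type and given no treatment that the labels name. Whether the mice were littermates is not given in the sources used here. The comparison asks how transcripts of the testis differ once Tmem232 is lost.

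Cholesterol is built from acetyl-CoA through mevalonate, farnesyl diphosphate and squalene. Squalene is then closed to lanosterol, the first sterol, which a series of demethylases, reductases and isomerases turns into cholesterol. The endoplasmic reticulum proteins SCAP and INSIG hold the SREBP transcription factors inactive when sterols are plentiful and release them to switch on the pathway when sterols are scarce. In testis, Leydig cells use cholesterol as the source of testosterone, Sertoli cells take up lipid from degenerating germ cells, and germ cells are known for high levels of some sterol intermediates, among them the product of CYP51, a meiosis-activating sterol.

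Total counts lay between 15428421 and 16350871 per library. Tmem232 itself, which should show whether the labels are right, had between 122 and 148 counts per 1000000 (CPM, after TMM scaling) in the libraries labelled KO and between 106 and 111 in the others. It was thus higher in the libraries labelled KO, by 0.27 on the log2 scale (standard error 0.0721, edgeR adjusted p = 0.0335). This call was lost with the replicate block and without replicate 1 or 2 labelled KO or replicate 2 or 4 labelled WT. The single count per gene includes reads outside the deleted fragment, so the labels were not verified by it, and all directions below follow the labels. The study reports no TMEM232 protein in Tmem232-/- testes, a measure apart from these libraries. Under these labels 865 genes were higher and 18 lower at a fold of 2 or more with an unadjusted p under 0.05 in edgeR. The study, with the same labels, also reports far more genes up than down. Among the marker lists, those of spermatids had the most genes called. The summed CPM of 9 elongating spermatid markers lay between 1321 and 2186 in the libraries labelled KO and between 338 and 677 in the others, and that of 8 round spermatid markers between 772 and 978 against 391 and 551. Of these markers, 9 of 9 and 7 of 8 were higher at an adjusted p under 0.05 in edgeR. The elongating spermatid markers were uneven. Prm1, Prm2, Tnp1 and Tnp2 had log2 fold changes from 3.54 to 4.44, and the rest of that list from 1.33 to 1.67. In the libraries labelled WT, Prm1 had only 1.63 to 7.54 CPM and Prm2 2.66 to 12.5 CPM. Markers of 2 other cell types were separate in the opposite direction. The 8 spermatogonia markers summed to between 139 and 152 CPM against 165 and 183, with 3 lower in edgeR, and the 5 markers of peritubular myoid cells to between 197 and 236 CPM against 250.2 and 296, with 2 lower. Epididymis markers summed to between 5.94 and 12.7 CPM against 6.3 and 34.9, with 0 of 2 tested called in edgeR and 0 at an unadjusted p under 0.05. The 7 Leydig cell markers summed to between 451 and 677 CPM against 289 and 514, with 0 called in edgeR and 4 higher at an unadjusted p under 0.05. In whole testis, more cells of a type and more RNA per cell cannot be told apart.

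All 30 genes passed the filter on low counts, with between 58 and 6446 counts in a library. In the libraries labelled KO, Cyp51, Lipe and Fdft1 were higher and Mvd was lower at an adjusted p under 0.05 in edgeR. Across all 15787 tested genes, 10.3% were higher and 1.46% were lower by the same rule, so that 3 higher and 1 lower of 30 are shares near the background. At an unadjusted p under 0.05 in edgeR, 5 of the 30 were higher and 3 lower, against 14.6% and 10.5% of all tested genes. The other 26 genes had log2 fold changes between -0.31 and 0.33. The median over the 30 was -0.0498, and over all tested genes it was -0.0536. With DESeq2, 5 genes were called higher, the other two being Sqle and Sc5d, while 11.5% of all tested genes were higher and 1.43% lower. The 4 libraries of each label did not overlap for 6 genes, of which 4 were higher (Cyp51, Lipe, Fdft1 and Sqle) and 2 lower (Mvd and Acat2). Over all tested genes, 11.8% were higher and 6.88% lower without overlap.

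**Figure D1:**
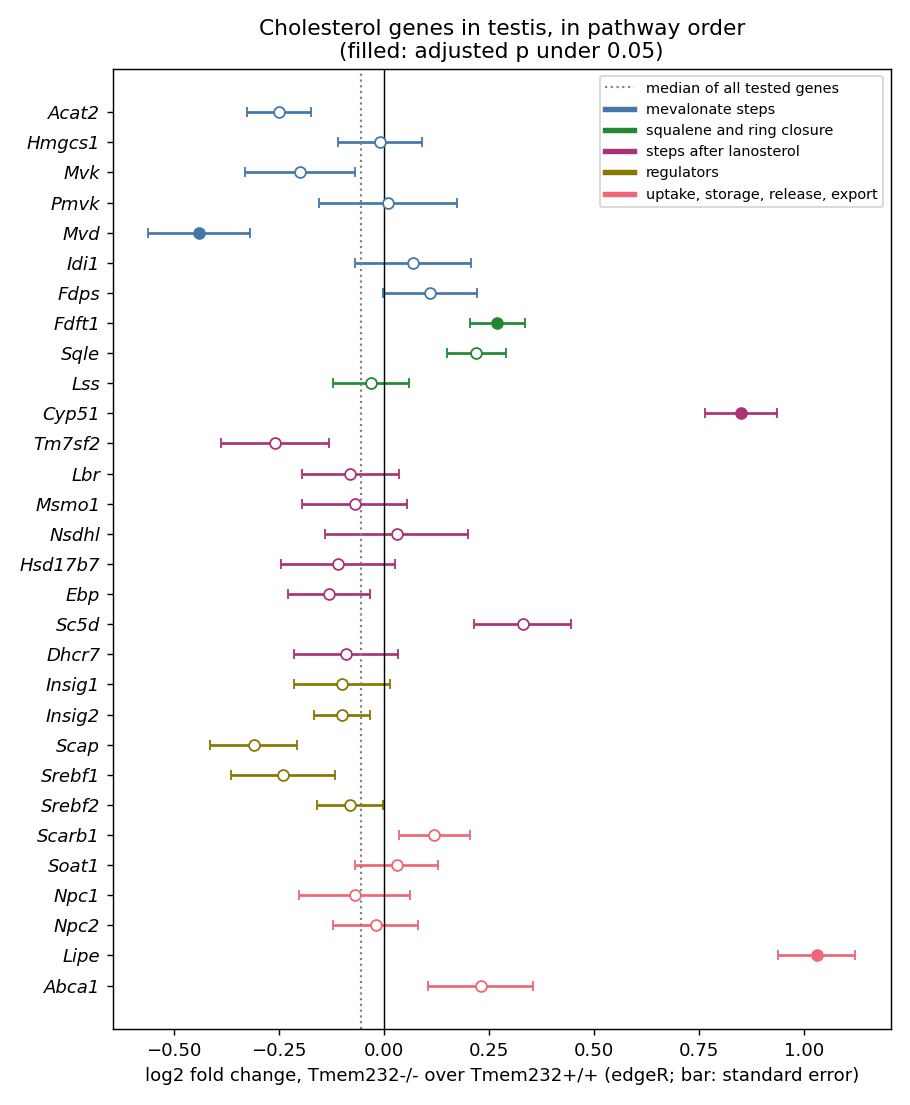
Log2 fold change of each of the 30 genes in edgeR, Tmem232-/- over Tmem232+/+, in the order of the pathway and coloured by role, with bars of 1 standard error filled points for an adjusted p under 0.05 and a dotted line at the median of all tested genes. Lipe at 1.03 and Cyp51 at 0.85 lie far to the right of the others, which lie between -0.44 and 0.33.

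Levels per transcript length were read from the deposited FPKM values. Fdft1, which encodes squalene synthase, was the most abundant gene with a mean of 99.8 FPKM over the 8 libraries. It was followed by Insig2 (43.2), Sqle (42.8), Fdps (38.9), Hmgcs1 (38.6) and Idi1 (36.8), which lay close together. The libraries of these 5 neighbours overlapped one another. Hsd17b7 (1.87), Npc1 (2.80), Srebf1 (4.36), Pmvk (4.60) and Lss (5.23) had the lowest mean FPKM. Lss, which closes the sterol rings directly after Sqle acts, was thus at a small part of the level of both enzymes before it.

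**Figure D2:**
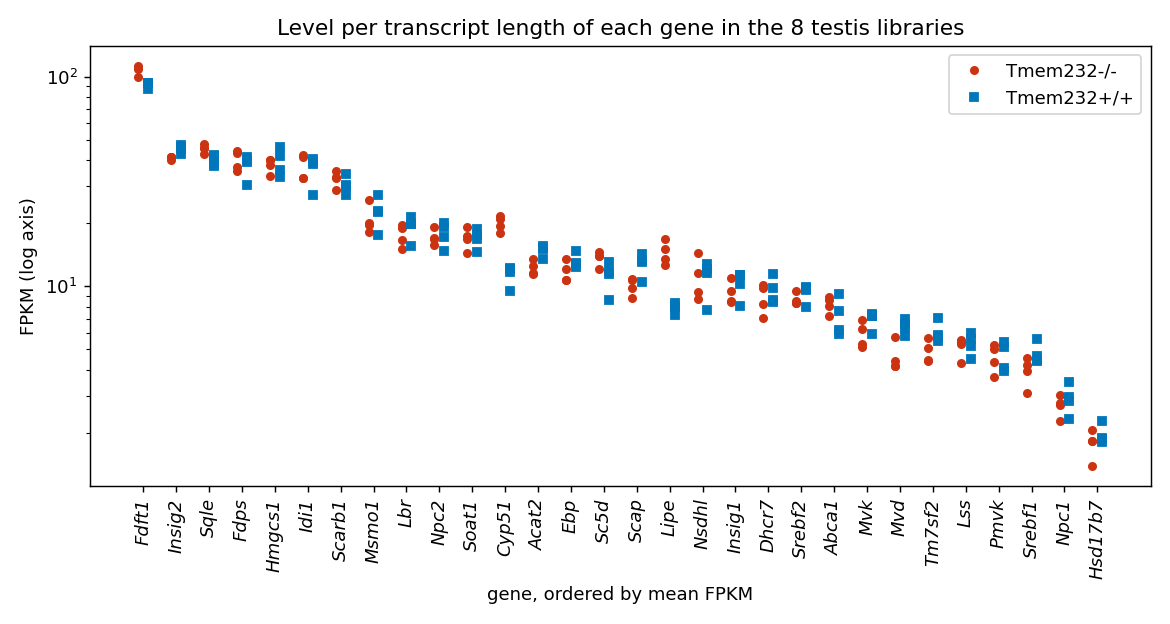
FPKM of the 30 genes in each of the 8 libraries on a log axis, ordered by the mean over all libraries, with circles for Tmem232-/- and squares for Tmem232+/+. Fdft1 stands highest at a mean of 99.8, Hsd17b7 lowest at 1.87, and the circles lie clear of the squares for Cyp51 and Lipe.

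Of the 7 enzymes from acetyl-CoA to farnesyl diphosphate, 0 rose and 1 fell at an adjusted p under 0.05 in edgeR, against 10.3% and 1.46% of all tested genes. Mvd encodes mevalonate diphosphate decarboxylase, which makes isopentenyl diphosphate. Its values were 6.86, 6.72, 7.08 and 8.98 CPM in replicates 1 to 4 labelled KO and 9.41, 10.2, 9.82 and 10.9 CPM in those labelled WT. Every library labelled KO was below every other, with replicate 4 the closest. The means were 7.41 ± 1.06 and 10.1 ± 0.647 CPM (SD, n = 4 each), a log2 fold change of -0.44 (standard error 0.121, edgeR adjusted p = 0.0346, two-sided p = 0.0286 by an exact permutation test, the lowest value open to 4 mice against 4). The locus overlaps Gm20388 on the other strand. The call rests on few counts, between 103 and 178 per library, and was kept in 8 of 17 alternatives, with adjusted p from 0.00849 to 0.111. It was lost when any library was left out other than replicate 4 labelled KO, and the log2 fold change stayed between -0.54 and -0.40.

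Acat2 encodes a cytosolic thiolase that joins acetyl-CoA units at the entry of the pathway. Its CPM were 22.6, 22.1, 24.0 and 25.3 in the libraries labelled KO and 26.1, 28.2, 28.1 and 29.2 in the others. These values did not overlap, yet the log2 fold change of -0.25 (standard error 0.0768) had an adjusted p of 0.063 in edgeR. The labels were separate in 13 of 17 alternatives, and in FPKM replicate 4 labelled KO (13.45) was above replicate 1 labelled WT (13.44). Acat2 was called in 2 of 17 alternatives, both on FPKM with limma (adjusted p = 0.0497 and 0.0479). The counts of Acat2 were not whole numbers in any library, and its locus overlaps Tcp1 and Acat3, a near copy, so that reads may have been divided between them. Acat3 had a log2 fold change of -0.11 and Tcp1 of 0.046.

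Hmgcs1 (HMG-CoA synthase) had a log2 fold change of -0.01, Mvk (mevalonate kinase) of -0.20, Pmvk (phosphomevalonate kinase) of 0.01, Idi1 (isopentenyl diphosphate isomerase) of 0.07 and Fdps (farnesyl diphosphate synthase) of 0.11. Their standard errors lay between 0.10 and 0.165, and the labels overlapped for all 5. Hmgcs1 ranged from 115 to 136 CPM in the libraries labelled KO and from 108 to 149.8 CPM in the others. The spread of Hmgcs1 within the wild-type label was thus wider than its difference between labels.

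Of the 3 genes that make squalene and close it to lanosterol, 1 passed the test in edgeR, Fdft1, which was higher, as were 10.3% of all tested genes. Fdft1 joins 2 farnesyl diphosphates into squalene, the first step that leads to sterols alone. Its CPM were 397, 405, 359 and 382 in replicates 1 to 4 labelled KO and 335, 299, 320.3 and 324 in those labelled WT. All values of the first label exceeded all of the second. The means were 386 ± 19.9 and 319 ± 15.1 CPM (SD, n = 4 each), a log2 fold change of 0.27 (standard error 0.0663, edgeR adjusted p = 0.019, two-sided p = 0.0286 by an exact permutation test). The adjusted p ranged from 0.000141 to 0.106 over 17 alternatives and was above 0.05 in 5, namely with the replicate block and without replicate 1 or 2 labelled KO or replicate 2 or 4 labelled WT. Fdft1 lies on chromosome 14 of GRCm38 (63145150 to 63181687) and overlaps Ctsb, its counts were not whole numbers, and Ctsb had a log2 fold change of 0.043.

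Sqle encodes squalene epoxidase, an oxygen-dependent control point of the pathway. Sqle had 121, 126, 119.7 and 109 CPM in the libraries labelled KO against 101, 105, 94.0 and 107 CPM. The lowest library of the first label was just above the highest of the second. The log2 fold change was 0.22 (standard error 0.0698, edgeR adjusted p = 0.0663), and an adjusted p under 0.05 was reached in 4 of 17 alternatives, DESeq2 among them. Lss, lanosterol synthase, had a log2 fold change of -0.03 (standard error 0.0908), with values from 27.0 to 33.0 CPM in one label and from 28.2 to 34.4 CPM in the other.

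Cyp51 was the gene of the synthetic pathway with the greatest difference. It encodes lanosterol demethylase, the cytochrome P450 that acts first on lanosterol. Cyp51 (Entrez ID 13121) occupies 4080674 to 4104697 of chromosome 5 of GRCm38, on the minus strand. Its CPM were 93.2, 82.2, 76.6 and 86.6 in replicates 1 to 4 labelled KO and 40.6, 49.6, 49.2 and 48.5 in those labelled WT. The lowest library of the first label was well above the highest of the second. The means of 84.7 ± 7.03 and 47.0 ± 4.29 CPM (SD, n = 4 each) gave a 1.80-fold difference, a log2 fold change of 0.85 (standard error 0.0862, edgeR adjusted p = 6.32e-05, two-sided p = 0.0286 by an exact permutation test). In FPKM the means were 20 ± 1.65 and 11.4 ± 1.25 (SD, n = 4 each). An adjusted p under 0.05 and separate groups were found in 17 of 17 alternatives, with log2 fold changes from 0.77 to 0.90 and adjusted p up to 0.00141 over edgeR, DESeq2 and limma. The deposited coordinates overlap Akap9, whose log2 fold change was 0.20 (standard error 0.0707, edgeR adjusted p = 0.104). Markers of round and elongating spermatids moved in the same direction, and their part in the difference of Cyp51 was not tested.

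The promoter of Cyp51 is shown because the gene departed from its neighbours in the pathway. RefSeq promoters on GRCm38.p6, 250 bases before to 50 after a start, were found for 25 of the 30 genes, with 34 starts, and the other 5, Fdft1 among them, were not searched. They were searched on both strands for TGACG, the core of the cAMP response element, for the full element TGACGTCA, which contains it, for CCAAT, for the classical sterol element TCACCCCAC and for the E-box CACGTG. Capitals mark matches in the sequence below, which is that of chr5:4104648-4104947 on the minus strand.
Cyp51: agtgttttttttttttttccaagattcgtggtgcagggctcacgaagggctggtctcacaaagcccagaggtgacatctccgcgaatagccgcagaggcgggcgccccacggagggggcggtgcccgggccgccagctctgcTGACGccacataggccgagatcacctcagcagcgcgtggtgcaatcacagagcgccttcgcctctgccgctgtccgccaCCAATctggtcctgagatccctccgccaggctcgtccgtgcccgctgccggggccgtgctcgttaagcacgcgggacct
TGACG begins at position -108 and CCAAT at -29 relative to the start. TGACG is present in 20.8% of 32851 promoters of this length and in 10 of the 34 promoters of the genes described here, and CCAAT in 37.4% and in 22 of the 34. TCACCCCAC is in 0.551% of all promoters and in 1 of the 34, that of Hmgcs1, TGACGTCA is in 1.79% and in 0 of the 34, and CACGTG is in 7.15% and in 8 of the 34.

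To set Cyp51 beside the gene that was lower, the promoter of Mvd is shown (chr8:122443373-122443672, minus strand), with CCAAT or its complement in capitals at -60 and -27.
Mvd: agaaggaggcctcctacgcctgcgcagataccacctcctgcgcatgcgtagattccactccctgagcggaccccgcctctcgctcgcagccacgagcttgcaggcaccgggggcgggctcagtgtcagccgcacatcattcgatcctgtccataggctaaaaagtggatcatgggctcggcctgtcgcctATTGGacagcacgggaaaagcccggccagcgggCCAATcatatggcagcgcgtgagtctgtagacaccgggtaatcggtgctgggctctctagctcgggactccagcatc
CCAAT was thus found in the windows of Cyp51 and Mvd, and it was in neither window of Lipe shown further below. The part of these motifs in any difference was not tested.

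Among the 9 genes acting after lanosterol, Cyp51 was the 1 called in edgeR and 0 were lower, against 10.3% higher and 1.46% lower of all tested genes, and the remaining 8 had log2 fold changes between -0.26 and 0.33. Tm7sf2 and Lbr encode the sterol reductases for the next step, LBR being also a receptor of the inner nuclear membrane. Tm7sf2 had 6.47 ± 0.733 CPM in the libraries labelled KO and 7.76 ± 0.915 CPM in the others (SD, n = 4 each), a log2 fold change of -0.26 (standard error 0.129, edgeR adjusted p = 0.236). Lbr had 60.5 ± 7.94 and 64.0 ± 8.59 CPM (SD, n = 4 each), a log2 fold change of -0.08. By FPKM, Lbr was the more abundant of both reductases in each library, with a ratio to Tm7sf2 from 2.66 to 4.42 in the first label and from 2.20 to 3.91 in the second, which overlap.

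Msmo1, the sterol methyl oxidase, had a log2 fold change of -0.07, Nsdhl, the decarboxylating dehydrogenase beside it, of 0.03 and Hsd17b7, the keto-reductase that completes removal of the methyl groups, of -0.11. Ebp, the sterol isomerase, had -0.13 and Dhcr7, the reductase of the last ring double bond, -0.09. The labels overlapped for these 5 genes. Sc5d, the lathosterol desaturase between Ebp and Dhcr7, had 33.5, 38.8, 39.0 and 38.9 CPM in the libraries labelled KO and 23.8, 35.8, 28.2 and 31.5 CPM in the others. Replicate 2 labelled WT exceeded replicate 1 labelled KO, so the labels overlapped. The log2 fold change of Sc5d was 0.33 (standard error 0.116, edgeR adjusted p = 0.0992), and the adjusted p was under 0.05 in 2 of 17 alternatives, DESeq2 and the fit without replicate 2 labelled WT.

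**Figure D3:**
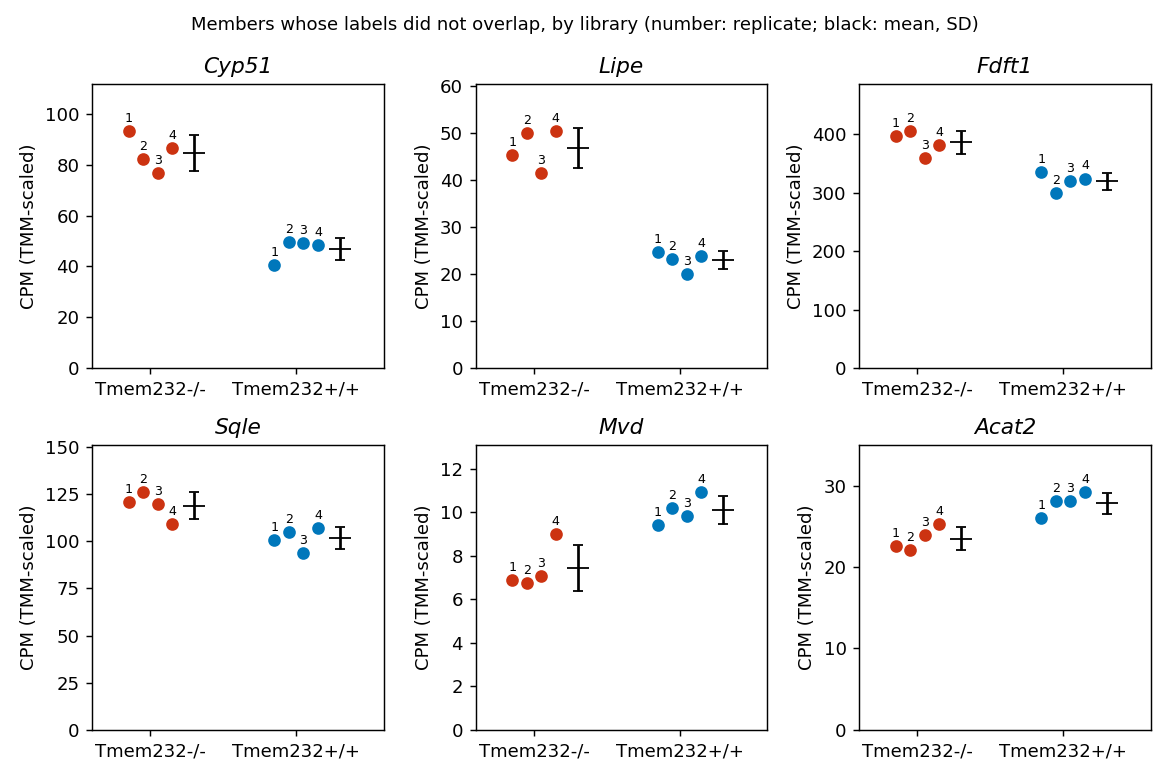
TMM-scaled CPM in each library for the 6 genes whose labels did not overlap, with replicate numbers above the points and the mean with SD of 4 libraries in black. Cyp51 and Lipe show a wide gap between labels, Fdft1 a narrower gap, and Sqle, Mvd and Acat2 a gap that is small beside the spread of the libraries.

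The regulators of the pathway showed small differences of the same sign, and none passed the test. All 5 regulators had log2 fold changes below 0, in edgeR and in each of the 17 alternatives, as did 9600 of the 15787 tested genes in edgeR. The alternatives refit the same 8 libraries or part of them, so they are not independent of each other. Some of these values were near 0, such as -0.00852 for Srebf2 without replicate 1 labelled WT. Scap, which escorts the SREBPs from the endoplasmic reticulum, had 36.0, 40.0, 44.8 and 41.9 CPM in replicates 1 to 4 labelled KO and 53.3, 55.7, 40.8 and 52.3 CPM in those labelled WT. Replicate 3 labelled WT lay among the libraries of the other label. The log2 fold change of Scap was -0.31 (standard error 0.104, edgeR adjusted p = 0.0841), and it passed the threshold only without that library (edgeR adjusted p = 0.00928). Srebf1, whose product acts mainly on fatty acid genes, had -0.24 (standard error 0.124) and Srebf2, whose product acts mainly on cholesterol genes, -0.08 (standard error 0.0782). Insig1 and Insig2, which retain SCAP, both had -0.10, with standard errors of 0.114 and 0.0662. Insig2 overlapped between labels in CPM and was separate in 4 of 17 alternatives. In FPKM it had 39.90 to 41.63 in the libraries labelled KO and 42.83 to 47.03 in the others.

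Insig2 was by far the more abundant of these retention factors. The ratio of Insig1 to Insig2 by FPKM was 0.227 ± 0.033 in the libraries labelled KO and 0.227 ± 0.037 in the others (SD, n = 4 each). Srebf1 stood at 0.455 ± 0.0678 of the level of Srebf2 in the first label and 0.515 ± 0.0549 in the second, with overlapping libraries. Insig2 was also the steadiest of the 30 genes among the libraries labelled KO, with a coefficient of variation of 3.82%, while Nsdhl had the highest at 22.0%.

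Among 6 genes of uptake, storage, release and export, 1 rose and 0 fell at an adjusted p under 0.05 in edgeR, against 10.3% and 1.46% of all tested genes. Lipe encodes hormone-sensitive lipase, which frees cholesterol and fatty acids from the esters of lipid droplets. It is needed for male fertility in mice, and a longer testis isoform made from its own first exon is known from germ cells. Lipe (Entrez ID 16890) occupies 25379527 to 25398486 of chromosome 7 on the minus strand. Its values were 45.4, 50, 41.4 and 50.4 CPM in replicates 1 to 4 labelled KO and 24.6, 23.3, 20.1 and 23.9 CPM in those labelled WT. The groups lay far apart relative to the spread within each. The means were 46.8 ± 4.28 and 23.0 ± 1.97 CPM (SD, n = 4 each), a 2.04-fold difference with a log2 fold change of 1.03 (standard error 0.0916, edgeR adjusted p = 3.32e-05, two-sided p = 0.0286 by an exact permutation test). Lipe was the 1 gene of the 30 at a fold change of 2 or more with an unadjusted p under 0.05, a limit that 5.48% of all tested genes passed upwards. An adjusted p under 0.05 and separate groups were found in 17 of 17 alternatives, with adjusted p up to 0.000659 over edgeR, DESeq2 and limma. A locus on the opposite strand, 4732471J01Rik, overlaps Lipe and is not among the genes analysed here. Whether the authors' counting used strand is not given in the sources used here.

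The difference of Lipe was smaller per length than per library. By FPKM the means were 14.5 ± 1.85 and 7.90 ± 0.464 (SD, n = 4 each), and the log2 fold change from the FPKM values was 0.79 with a pseudocount of 1 and 0.86 with a pseudocount of 0.1. Dividing counts by FPKM gives the mean transcript length that the authors' estimate used in a library. For Lipe this length was 3261, 3252, 3220 and 3057 bases in replicates 1 to 4 labelled KO and 2890, 2968, 2839 and 3059 bases in those labelled WT. Replicate 4 of each label was nearly equal, and the other libraries labelled KO were above all those labelled WT. The means differed by 8.79%, whereas for the other 29 genes they differed by at most 1.32% in either direction. Of 9656 genes with several transcripts and enough counts, 0.30% had a rise as large. Of the 25 genes described here that could be compared, 0 had separate groups in either direction, against 1.41% of those genes upwards and 1.97% downwards. Within a label, the length and the spermatid marker sums did not run in one order. Replicate 3 labelled WT had the shortest length, 2839 bases, with the highest round and elongating sums of its label, 551 and 677 CPM. Replicate 1 labelled KO had the longest length, 3261 bases, with the highest sums of its label, 978 and 2186 CPM. This length was examined after the FPKM values had been seen and is given without a test. The part of spermatids in it was not tested.

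**Figure D4:**
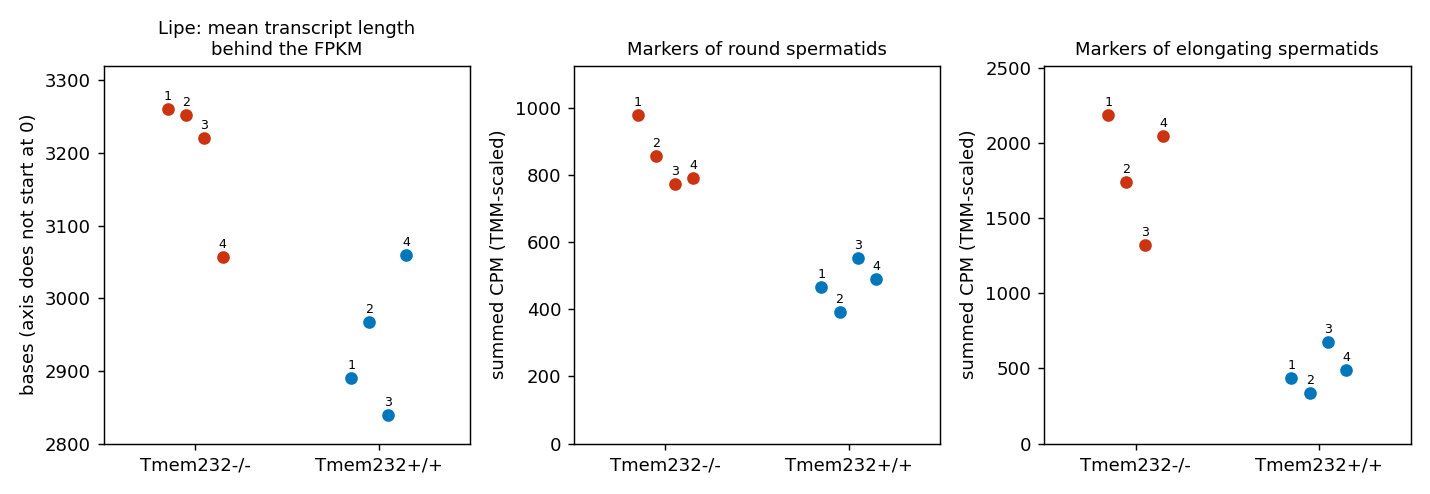
Left, mean transcript length of Lipe in bases behind the deposited FPKM in each library, on an axis that does not start at 0, and middle and right, summed TMM-scaled CPM of 8 round and 9 elongating spermatid markers, with replicate numbers above the points. The length is 3057 to 3261 bases in Tmem232-/- and 2839 to 3059 bases in Tmem232+/+, and both marker sums are separate between labels.

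The annotation of GRCm38 (GENCODE M21) lists, among others, protein-coding Lipe transcripts of 3713, 3613 and 2661 bases that begin at 25398710, 25396379 and 25390106. For the most upstream of these, at 25398710, no RefSeq promoter was available and none was searched. RefSeq promoters were available for starts at 25395987 and 25390112, and both are shown because counts at this locus sum over starts. The first, upstream, is chr7:25395938-25396237 and the second is chr7:25390063-25390362, both on the minus strand, with capitals for CACGTG at -155 of the upstream start.
Lipe upstream start: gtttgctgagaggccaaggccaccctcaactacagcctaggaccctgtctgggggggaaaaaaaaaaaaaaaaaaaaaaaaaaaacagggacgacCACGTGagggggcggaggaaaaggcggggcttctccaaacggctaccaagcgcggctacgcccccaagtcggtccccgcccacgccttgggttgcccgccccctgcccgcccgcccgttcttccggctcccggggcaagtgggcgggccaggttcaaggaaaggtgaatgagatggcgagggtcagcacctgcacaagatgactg
Lipe downstream start: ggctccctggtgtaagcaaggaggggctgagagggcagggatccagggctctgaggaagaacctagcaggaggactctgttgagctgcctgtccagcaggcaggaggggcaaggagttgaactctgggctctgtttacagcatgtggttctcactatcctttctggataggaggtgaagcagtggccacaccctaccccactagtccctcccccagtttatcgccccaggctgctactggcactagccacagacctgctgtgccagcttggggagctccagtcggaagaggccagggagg
No other searched motif matched either window. Since each gene has only a summed count, reads from these starts were not separated.

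Fat cells also express Lipe. The 5 fat cell markers summed to between 4.87 and 12.3 CPM in the libraries labelled KO and between 2.42 and 5 CPM in the others, of which Adipoq had 3.10 to 6.72 and 1.39 to 2.22 CPM and was higher (log2 fold change 1.25, edgeR adjusted p = 0.00509). Cfd had 0.184 to 2.60 against 0 to 0.507 CPM, Cidec 0.246 to 1.06 against 0 to 0.253 CPM, Lep 0.123 to 0.569 against 0.0614 to 0.685 CPM and Retn 0.696 to 1.46 against 0.605 to 1.46 CPM. Cfd, Cidec and Lep were below the filter on low counts and were not tested, and Retn had a log2 fold change of 0.06. The part of fat, Leydig and germ cells in the level of Lipe was not tested.

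Scarb1 encodes the receptor that takes up cholesteryl esters from lipoproteins, and Soat1 encodes the enzyme that esterifies cholesterol for storage. Scarb1 had 75.6 ± 6.18 and 69.6 ± 6.48 CPM and Soat1 had 79.1 ± 8.80 and 77.3 ± 8.35 CPM (SD, n = 4 each) in Tmem232-/- and Tmem232+/+. Their log2 fold changes of 0.12 and 0.03 had standard errors of 0.0851 and 0.099. The labels overlapped for both genes. Npc1 and Npc2, which move cholesterol out of lysosomes, had -0.07 and -0.02, with standard errors of 0.131 and 0.102. Abca1 exports cholesterol to apolipoproteins and ranged from 74.7 to 91.5 CPM in the libraries labelled KO and from 60.1 to 89.8 CPM in the others. Its log2 fold change was 0.23 (standard error 0.125, edgeR adjusted p = 0.29), and its coefficient of variation of 19.8% was the highest of the 30 genes among the libraries labelled WT.

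The libraries differed within a label in a way that many of these genes shared. Replicate 3 labelled WT was the lowest of its label for 17 of the 30 genes, against 35.4% of all tested genes. Replicate 1 labelled KO was the lowest of its label for 14 of the 30, against 22.3% of all tested genes. Replicate 4 labelled WT was the lowest for 0 of the 30, against 14.6% of all tested genes. Marker sums of 3 other cell types were also lowest in these libraries, replicate 1 labelled KO and replicate 3 labelled WT. Red blood cell markers summed to 150.2 CPM in replicate 1 labelled KO and 282 to 596 in the others of its label, and to 305 CPM in replicate 3 labelled WT and 546 to 595 in the others. Macrophage markers summed to 78.3 and 74.2 CPM in these 2 libraries and endothelial markers to 23.7 and 24.7 CPM. Some other lists were instead highest of their label in the same 2 libraries. Spermatocyte markers summed to 2349 and 2306 CPM, round spermatid markers to 978 and 551 and elongating spermatid markers to 2186 and 677. Fat cell markers summed to 12.3 and 5 CPM. The part of these cell types in the levels of the 30 genes was not tested. Soat1 shows the pattern, with 68.8, 81.5, 89.7 and 76.2 CPM in replicates 1 to 4 labelled KO and 82.9, 84.2, 65.9 and 76.3 CPM in those labelled WT. The calls for Cyp51 and Lipe were kept without either library.

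A further 42 genes of cholesterol metabolism were listed, of which 39 passed the filter on low counts. Of these, 3 had an adjusted p under 0.05 in edgeR in the higher direction and 0 in the lower, against 10.3% and 1.46% of all tested genes. With DESeq2 there were 4 higher and 0 lower, against 11.5% and 1.43%. At an unadjusted p under 0.05 in edgeR there were 5 higher and 3 lower, against 14.6% and 10.5%. The labels did not overlap for 4 higher and 1 lower, against 11.8% and 6.88%. Their median log2 fold change was 0.00914. Under the 17 alternatives it ranged from -0.0455 on FPKM with a pseudocount of 0.1 to 0.071 without the filter on low counts. Plin2, which coats lipid droplets, had 32.1, 30, 25.7 and 30.6 CPM in replicates 1 to 4 labelled KO and 16.3, 16.8, 18.4 and 17.7 CPM in those labelled WT. The libraries labelled KO were all above the others. The log2 fold change was 0.77 (standard error 0.0895, edgeR adjusted p = 0.000139), and the call was kept in 17 of 17 alternatives. The table lists Plin2 under a further identifier, which had means of 1.86 and 0.959 CPM, so reads may be divided between both.

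Osbp, a carrier of sterols between membranes, had 94.0, 97.9, 95.4 and 81.8 CPM in the libraries labelled KO and 73.6, 77.3, 75.6 and 79.7 CPM in the others. These values did not overlap. The means were 92.3 ± 7.19 and 76.5 ± 2.60 CPM (SD, n = 4 each), a log2 fold change of 0.27 (standard error 0.0707, edgeR adjusted p = 0.0284). That call was lost with the replicate block and without replicate 1, 2 or 3 labelled KO or replicate 2 or 4 labelled WT. Ces1d, a carboxylesterase from a cluster of similar genes, had 3.19, 5.65, 4.43 and 9.10 CPM against 2.06, 3.09, 0.633 and 2.64 CPM. The lowest library labelled KO was just above the highest labelled WT. This gave a log2 fold change of 1.41 (standard error 0.402, edgeR adjusted p = 0.0441), and the call was kept in 8 of 17 alternatives. It was lost with library size alone, limma-voom and both FPKM fits, and without replicate 2, 3 or 4 labelled KO or replicate 1 or 4 labelled WT.

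Star and Cyp46a1 were named after their values were seen, as the other genes without overlap. Star, which carries cholesterol into mitochondria of Leydig cells, had 30.6, 30.5, 30.2 and 33.8 CPM in the libraries labelled KO and 19.1, 27.6, 26 and 26 CPM in the others. All of the first exceeded all of the second. In edgeR the log2 fold change was 0.34 (standard error 0.11, edgeR adjusted p = 0.0718), and with DESeq2 it was 0.37 (adjusted p = 0.0293), a call made in 1 of 17 alternatives. Cyp46a1, a sterol hydroxylase, had 16.3, 16.0, 13.9 and 14.1 CPM in the libraries labelled KO and 16.5, 17.8, 18.2 and 17.4 CPM in the others. Its log2 fold change was -0.22 (standard error 0.0888, edgeR adjusted p = 0.159). For Cyp46a1 the labels were separate in 11 of 17 alternatives, and for Star in 17 of 17.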

How the data were processed

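Whole-testis RNA of 4 mice labelled Tmem232-/- and 4 labelled Tmem232+/+ was sequenced in read pairs, 1 library per mouse. Per the labels and the study's methods, the authors used HISAT, Bowtie2, StringTie, featureCounts and DESeq2 with GRCm38.p6. Whether strand was used is not given in the sources used here. The deposited estimated counts are not normalized, and between 10.7% and 11.2% of genes in a library carry a fractional count, more than 0.001 from a whole number, as meant throughout by counts that are not whole. The deposited FPKM values follow counts, library total and transcript length, as checked on 496 genes with a single transcript. Columns of the authors' own comparison (fold changes and p-values) were not used.

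Counts were rounded to whole numbers and tested with edgeR 4.0.16 under R 4.3.3 (default low-count filter, TMM, quasi-likelihood test without covariates, Benjamini-Hochberg adjustment over 15787 genes). Standard errors are the log2 fold change divided by the root of the F statistic. An exact permutation test of mean CPM over 70 arrangements was run for single genes. The alternatives were DESeq2 1.42.0, limma-voom and limma 3.58.1 on log2 of FPKM plus 1 or plus 0.1, other scalings and filters, a replicate block and each library left out, 17 in all, and the steps were tested on simulated data. Those of the 30 genes called or without overlap between labels are given with every library, and other pathway genes were named where called. Strand was taken from GENCODE M21, since the table lists the other strand for 8 of the 30 genes. The members and gene lists were chosen with earlier results of these data known. Some genes of the pathway are not reported here.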

Additional observations from a re-analysis of the deposited data

Results flagged for a closer look

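In 68 groups of 4 libraries tested, 4 had a library far from the other three by Dixon's ratio of gap to range and chance gives about 3.4. Replicate 1 labelled WT had 40.6 CPM of Cyp51 (ratio 0.875), below the others of its label. Replicate 4 labelled KO had 8.98 CPM of Mvd (ratio 0.837), above the others of its label. For Hsd17b7, replicate 2 labelled WT stood highest with 9.75 CPM (ratio 0.923). For Sc5d, replicate 1 labelled KO stood lowest with 33.5 CPM (ratio 0.958).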

How the results depend on the processing

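Of 510 values of the 30 genes under the 17 alternatives, 449 kept their direction and side of the threshold, 14 lost the call, 9 gained one and 38 changed sign, and the sign changes concern genes that were not called. Cyp51 and Lipe kept their calls throughout. With DESeq2, 5 genes were higher in place of 3. The 1 lower gene became 0 without a filter on low counts or with the replicate block, and 2 with either FPKM fit. The 2 genes lower without overlap became 1 without the filter. With each library left out, the lower calls ranged from 0 to 1, the genes lower without overlap from 2 to 4 (4 without replicate 2 or 3 labelled WT), and the other pathway genes from 1 to 3 higher (1 without replicate 2 or 3 labelled KO or replicate 4 labelled WT) and from 0 to 1 lower (1 without replicate 4 labelled KO or replicate 3 labelled WT). The log2 fold change of Tmem232 was 0.26 with the replicate block and 0.21 to 0.32 with a library left out. The cause of these changes was not tested.

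Near 0, signs changed. Hmgcs1 had a log2 fold change of 0.0114 with DESeq2 or its size factors and 0.0308 without the filter. Npc2 had 0.00775 with DESeq2, 0.00774 with its size factors and 0.0269 without the filter, and Lss had 0.0169 without the filter. With library size alone, Pmvk had -0.0163, Nsdhl -0.00282 and Soat1 -0.00145. With FPKM and a pseudocount of 1 these were -0.014, -0.00717 and -0.00205, and with 0.1 they were -0.0167, -0.0076 and -0.00222. With a library left out, log2 fold changes ranged from -0.0596 to 0.0659 for Hmgcs1, -0.0589 to 0.16 for Pmvk, -0.0156 to 0.19 for Idi1, -0.0565 to 0.0351 for Lss, -0.14 to 0.0133 for Lbr, -0.16 to 0.0189 for Msmo1, -0.10 to 0.13 for Nsdhl, -0.0348 to 0.11 for Soat1, -0.14 to 0.0178 for Npc1 and -0.0726 to 0.10 for Npc2. The replicate numbers share no animal, and deviations of same-numbered libraries correlated at -0.138, 0.156, -0.464 and -0.156 for replicates 1 to 4, so the block is not a pairing of samples.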
